A study of Mus musculus with 18 samples.

Results

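A set of 10 genes of bile acid synthesis and of the receptors that control it, read by 12 probes, was followed in mouse liver: Cyp7a1, Cyp8b1, Cyp27a1, Cyp7b1, Baat, Nr1h4, Nr0b2, Nr5a2, Fgfr4 and Klb. They were taken by symbol from the probe annotation of the array, and every probe of each symbol was kept. The rule uses no measured value, but the list was drawn up with earlier results of these data known. They are 10 of 15951 genes tested, and their probes are 12 of 39429 non-control probes. Livers came from males of C57BL/6J, a standard inbred strain, killed at 13 weeks of age after 5 weeks of feeding. The linseed group (8 mice) ate a high-fat diet with linseed oil, whose fat was 66.7% polyunsaturated (49.7% alpha-linolenic acid), 22.5% monounsaturated and 9.7% saturated. The palm group (10 mice) ate a high-fat diet with palm oil, whose fat was 8.8% polyunsaturated, 34.8% monounsaturated and 55.6% saturated. Both diets gave 51.1% of energy as lipid, 32.1% as carbohydrate and 16.7% as protein, so there was no low-fat group and every difference below is between 2 high-fat diets. RNA of 1 liver went on each 1-colour array.

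Bile acids are made from cholesterol in hepatocytes. In the classic pathway CYP7A1 adds the first hydroxyl group and sets the rate, and CYP8B1 directs the product towards cholic acid; in the alternative pathway CYP27A1 oxidises the side chain and CYP7B1 follows. Bile acids repress their own synthesis: they activate FXR (Nr1h4), which induces the repressor SHP (Nr0b2), and SHP restrains LRH-1 (Nr5a2) at the bile acid enzyme genes, while an intestinal FGF hormone acts on liver through the receptor FGFR4 and its partner beta-Klotho (Klb).

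The promoters of Nr0b2 and Cyp8b1 are shown because they are the DNA on which that loop is known to act. A promoter was available for 7 of the 10 genes (8 promoters), in the RefSeq table of build GRCm38.p6. Each sequence is the 250 bases before the start of the gene, on the gene's strand, 5′ to 3′, at chr4:133553126-133553375 (plus strand) for Nr0b2 and chr9:121916306-121916555 (minus strand) for Cyp8b1. Capitals mark matches to half-sites that nuclear receptors bind, searched on both strands: TCAAGG and the related letters AGGTCA and also AGTTCA.
Nr0b2: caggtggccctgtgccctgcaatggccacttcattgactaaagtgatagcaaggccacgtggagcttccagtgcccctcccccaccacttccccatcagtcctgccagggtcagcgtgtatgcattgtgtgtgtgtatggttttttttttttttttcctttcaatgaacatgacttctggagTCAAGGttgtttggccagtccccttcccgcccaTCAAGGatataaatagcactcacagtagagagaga
Cyp8b1: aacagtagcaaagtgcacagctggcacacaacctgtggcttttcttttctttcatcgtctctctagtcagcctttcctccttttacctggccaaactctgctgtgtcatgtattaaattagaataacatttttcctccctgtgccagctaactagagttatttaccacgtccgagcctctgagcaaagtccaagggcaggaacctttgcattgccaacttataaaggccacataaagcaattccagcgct
Nr0b2 held 2 matches to TCAAGG, at 68 to 63 and at 35 to 30 bases before the start, and Cyp8b1 held no match to these exact letters. Other spellings were not searched, such as CCAAGG, which the printed Cyp8b1 sequence holds. Of 32851 promoters of this length, 12.5% held TCAAGG, 14% held AGGTCA and 11.8% held AGTTCA. Cyp27a1 held AGTTCA at 158 to 153 bases, Nr1h4 held AGGTCA on the opposite strand at 214 to 209 bases and 1 promoter of Nr5a2 held AGGTCA at 64 to 59 bases. These matches describe the letters and are no measurement of binding.

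Values are log2 of the array signal relative to each array's 75th percentile, and differences are linseed minus palm ± the SE that limma gives, with p adjusted by Benjamini-Hochberg over all 15951 genes. Levels of different probes are not comparable with each other. All 12 probes were well above background on all 18 arrays and none was saturated. The livers expressed hepatocyte markers throughout: 11 of 11 measured markers were above background, with a summed linear level of 2270 to 3770 in linseed livers and 2351 to 3393 in palm livers. In whole liver, fewer cells of a type and less RNA per cell cannot be told apart. The mice were kept in groups and the labels do not say which shared a cage. The p-values set each difference against the spread between mice, taken as independent. Any effect of cage could not be separated from that of diet.

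Of the 10 genes, 1 passed the test (adjusted p under 0.05), and it was lower on linseed oil. Over all genes, 121 of 15951 passed (0.759%), 30 of them lower (0.188%) and 91 higher (0.57%). Cyp7a1 was the gene that passed. At an unadjusted p under 0.05 the 10 genes had 2 members, Cyp7a1 and Nr5a2, against 10.2% of all genes. Differences were above 0 for 5 of the genes and below 0 for 5, with a median of −0.0069, against −0.0038 over all genes. None of the 10 had diets that did not overlap, against 0.219% of all genes.

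**Figure D1:**
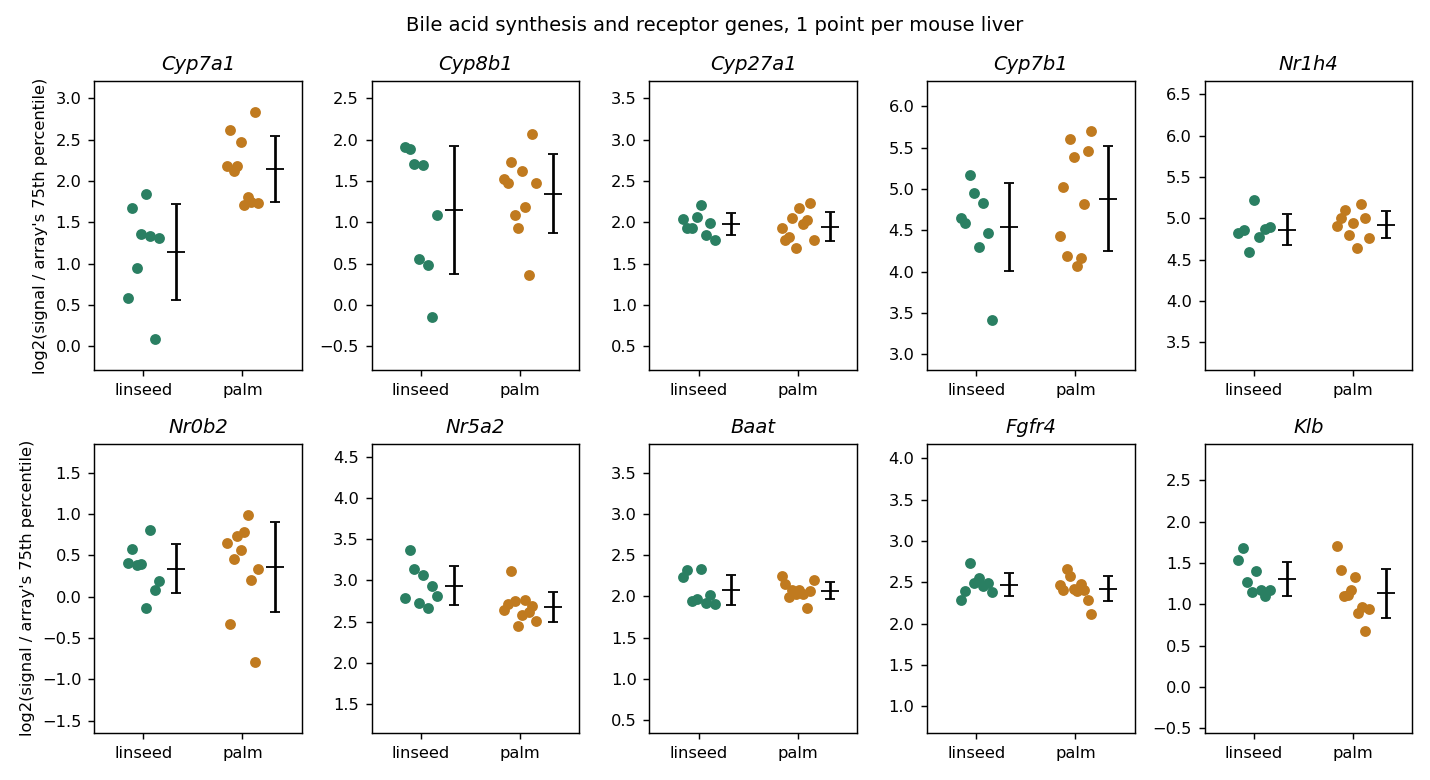
Log2 signal relative to the array's 75th percentile for each gene (brightest probe), 1 point per mouse, linseed (green) left of palm (orange), with the mean and SD beside the points. The level of one gene's panel is not comparable with another's. Cyp7a1 is the panel in which 7 of 8 linseed points lie below the lowest palm point, at 1.71.

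Cyp7a1, the rate-limiting enzyme of the classic pathway, was about 2.00-fold lower on linseed oil. Its probe lies on chromosome 4 at 6193456 to 6193515 (minus strand, mm9). The level was 0.083 at the lowest, 1.32 at the median and 1.84 at the highest in linseed livers, and 1.71, 2.15 and 2.84 in palm livers. The linseed values lay low as a group: 7 of 8 were below the lowest palm value and 8 of 8 below the palm median, while 6 of 10 palm values were above the highest linseed value. Means were 1.14 ± 0.58 (SD, n = 8) on linseed oil and 2.14 ± 0.40 (SD, n = 10) on palm oil. The difference was −0.998 ± 0.217 (adjusted p = 0.0389), with a 95% interval of −1.45 to −0.543, or 1.46-fold to 2.74-fold lower. An exact permutation test of the diet labels of this gene alone gave p = 0.000206 over 43758 labellings (two-sided). That test was run on the same values of a gene that had passed, and is not adjusted for that choice. By its limma p Cyp7a1 ranked 84 of all genes tested.

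The call for Cyp7a1 lay close to the threshold. It held in 20 of 38 other settings, and the direction in 38 of 38. Leaving out single mice gave −1.10 to −0.847 with adjusted p between 0.0293 and 0.0813. The call ended without linseed replicate 1, 3, 4 or 7 (−0.92, −0.97, −1.03 and −0.847), and without palm replicate 1, 2, 3, 4, 5 or 9 (−0.994, −0.946, −1.0, −0.994, −0.962 and −0.921). The difference was −0.96 when slide entered as a fixed block (adjusted p = 0.0536) and −0.98 when it entered as a random one (adjusted p = 0.0199).

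**Figure D2:**
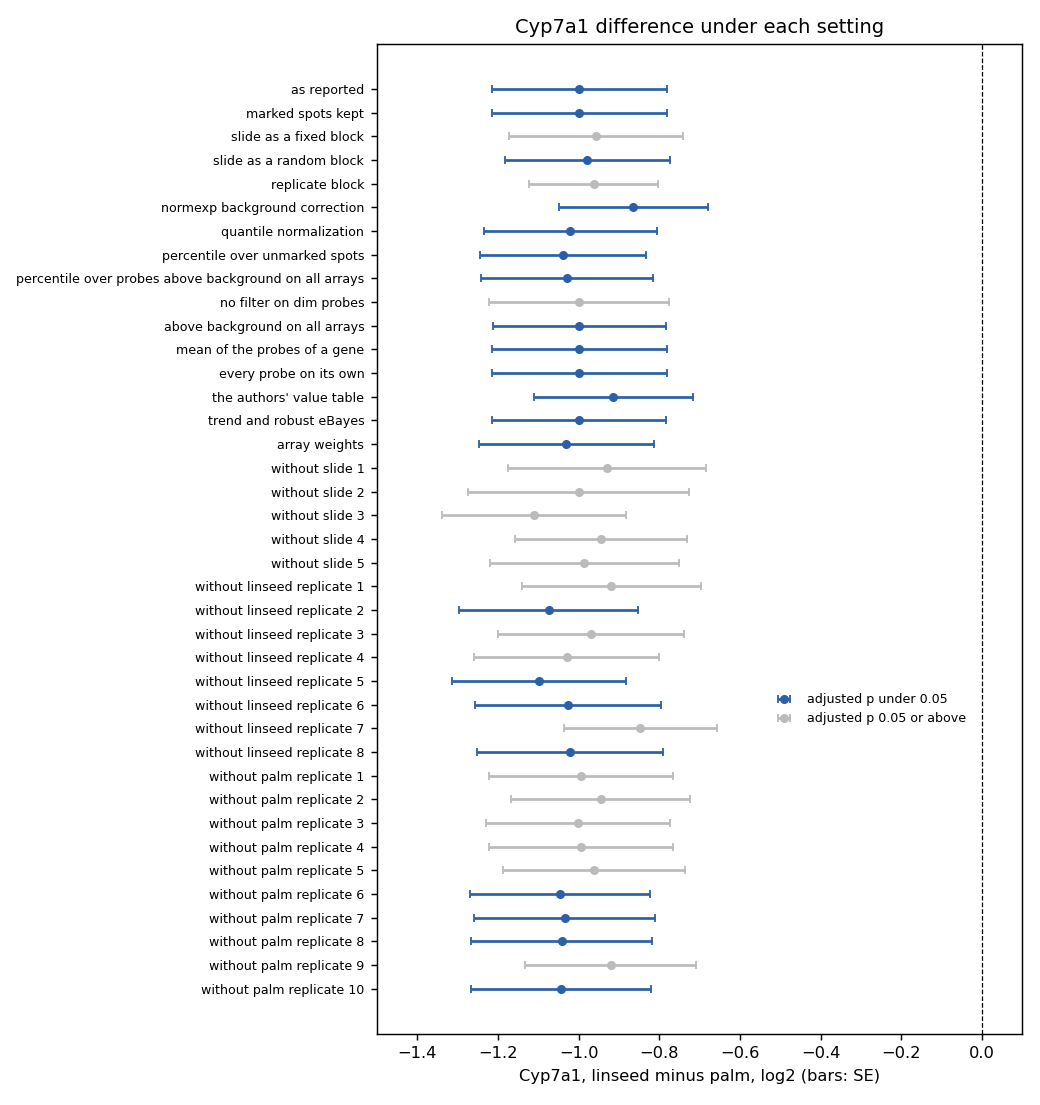
Difference in Cyp7a1, linseed minus palm on the log2 scale, as reported and in each of 38 other settings, with the SE as bars. Blue settings had an adjusted p under 0.05 and grey settings did not; every value lies left of 0, between −1.11 and −0.847.

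The arrays fell on 5 slides, each with both diets, by the number in the names of the deposited array data. The header of each array gives the same number except for the 3 arrays of slide 3, whose headers give none. The arrays of each slide share 1 scan time that no other slide has. Within slides Cyp7a1 was lower on linseed oil in 5 of 5, by −1.27, −0.995, −0.25, −1.07 and −0.977 for slides 1 to 5. Slide 3, with the smallest difference, held 1 linseed mouse against 2 palm mice, and slide 5 also held 1 linseed mouse. Cyp8b1, by comparison, was lower on linseed oil in 3 slides and higher in 2.

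**Figure D3:**
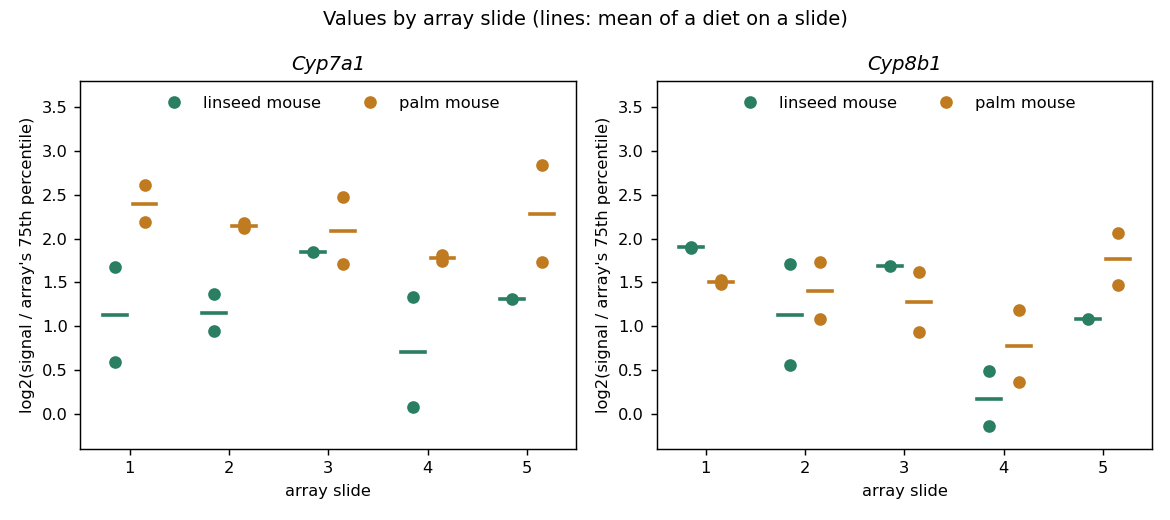
Log2 signal relative to the array's 75th percentile for Cyp7a1 and Cyp8b1 by array slide, 1 point per mouse, linseed (green) left of palm (orange), with a line at the mean of each diet on a slide. The linseed line for Cyp7a1 lies below the palm line on all 5 slides, while that for Cyp8b1 lies above it on slides 1 and 3.

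Cyp8b1, the sterol 12-alpha-hydroxylase that shifts synthesis towards cholic acid, did not pass. It was read by a probe on chromosome 9 at 121824595 to 121824654 (minus strand, mm9). Levels were −0.14, 1.39 and 1.91 (lowest, median, highest) in linseed livers and 0.36, 1.47 and 2.06 in palm livers. The diets overlapped almost fully, with 7 of 8 linseed values inside the palm range. The difference was −0.20 ± 0.28 (adjusted p = 0.871), with a 95% interval of −0.776 to 0.383 that leaves room for a fall of 1.71-fold. Without linseed replicate 7 it was −0.012. Its spread between mice was wide: its SD ranked at percentile 96.3 of all genes among linseed livers and 87.5 among palm livers.

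Cyp27a1, the mitochondrial sterol 27-hydroxylase of the alternative pathway, was the most tightly measured of the hydroxylases. Its probe, on chromosome 1 at 74782203 to 74782262 (plus strand, mm9), was printed as 10 spots per array. Levels were 1.78, 1.97 and 2.21 in linseed livers and 1.69, 1.96 and 2.23 in palm livers. All 8 linseed values lay inside the palm range. The difference was 0.028 ± 0.080 (adjusted p = 0.948), with a 95% interval of −0.14 to 0.195, and its sign turned in 6 of 38 other settings.

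Cyp7b1, the oxysterol 7-alpha-hydroxylase that acts after CYP27A1, varied widely and did not pass. Its probe maps to chromosome 3 at 17972286 to 17972345 (minus strand, mm9). Levels were 3.41, 4.62 and 5.17 in linseed livers and 4.07, 4.92 and 5.70 in palm livers. Linseed replicate 8 was the 1 linseed value below the palm range, and 4 of 10 palm values lay above the linseed range. The difference was −0.34 ± 0.26 (adjusted p = 0.725), with a 95% interval of −0.894 to 0.211. Within slides it was lower on linseed oil in 3 and higher in 2, with slide 5, which holds linseed replicate 8, at −2.17. Without that mouse the difference was −0.18, and without slide 5 −0.0057.

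Baat, the enzyme that joins bile acids to taurine or glycine, had closely spaced values. Its probe lies on chromosome 4 at 49502933 to 49502992 (minus strand, mm9). Levels were 1.91, 1.99 and 2.33 in linseed livers and 1.86, 2.07 and 2.25 in palm livers. The diets overlapped, with 6 of 8 linseed values inside the palm range. The difference was 0.0078 ± 0.075 (adjusted p = 0.985) and its 95% interval of −0.149 to 0.164 holds no change above 1.12-fold in either direction. Its sign turned in 11 of 38 other settings.

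Nr1h4, which encodes the bile acid receptor FXR, did not pass. Its probe lies on chromosome 10 at 88917222 to 88917281 (minus strand, mm9). The image software marked the spot as uneven or outlying on linseed replicate 8 and palm replicate 7, which were left out. Levels were 4.60, 4.86 and 5.23 in linseed livers (n = 7) and 4.65, 4.94 and 5.17 in palm livers (n = 9). The ranges covered each other apart from 1 linseed value on either side. The difference was −0.062 ± 0.092 (adjusted p = 0.879), with a 95% interval of −0.256 to 0.133, and −0.097 ± 0.085 (adjusted p = 0.757) with the marked spots kept. With those spots left out the difference was below 0 on all 4 slides with values from both diets, between −0.283 and −0.021. Without linseed replicate 3 it was −0.018 and without linseed replicate 4 −0.12.

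Nr0b2, which encodes the repressor SHP, did not pass either. Its probe lies on chromosome 4 at 133109694 to 133109753 (plus strand, mm9). Levels were −0.14, 0.39 and 0.81 in linseed livers and −0.79, 0.51 and 0.99 in palm livers. All 8 linseed values lay inside the palm range, and 2 palm values lay below the linseed range. The difference was −0.022 ± 0.20 (adjusted p = 0.984), with a 95% interval of −0.446 to 0.403, and its sign turned in 11 of 38 other settings.

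Nr5a2, which encodes LRH-1, had the highest difference of the 10 genes, but it did not pass. Its brighter probe lies on chromosome 1 at 138740903 to 138740962 (minus strand, mm9). Levels were 2.66, 2.87 and 3.37 in linseed livers and 2.44, 2.66 and 3.11 in palm livers. Of the linseed values 7 of 8 were above the palm median, and 5 palm values lay below the linseed range. The difference was 0.26 ± 0.10 (unadjusted limma p = 0.0190, adjusted p = 0.354), with a 95% interval of 0.047 to 0.464. It was above 0 on 5 of 5 slides, between 0.0020 and 0.55. The dimmer probe, at 138741712 to 138741771 on the same strand, differed by 0.12 ± 0.08 (adjusted p = 0.642).

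Fgfr4, the hepatocyte receptor for the intestinal FGF hormone, had 2 probes on chromosome 13, and neither passed. The brighter lies at 55270033 to 55270092 and the dimmer at 55269212 to 55269271 (plus strand, mm9). Levels of the brighter were 2.28, 2.47 and 2.74 in linseed livers and 2.12, 2.41 and 2.66 in palm livers. The diets overlapped, with 7 of 8 linseed values inside the palm range. Its difference was 0.051 ± 0.074 (adjusted p = 0.874), with a 95% interval of −0.103 to 0.205, and the dimmer probe's was 0.072 ± 0.085 (adjusted p = 0.83).

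Klb, the co-receptor that FGFR4 needs to bind that hormone, did not pass. It was read by a probe on chromosome 5 at 65774926 to 65774985 (plus strand, mm9). Levels were 1.10, 1.22 and 1.68 in linseed livers and 0.68, 1.11 and 1.71 in palm livers. All linseed values lay inside the palm range, 7 of 8 of them above the palm median. The difference was 0.18 ± 0.12 (adjusted p = 0.664), with a 95% interval of −0.074 to 0.43. It was above 0 on 5 of 5 slides, between 0.049 and 0.366.

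**Figure D4:**
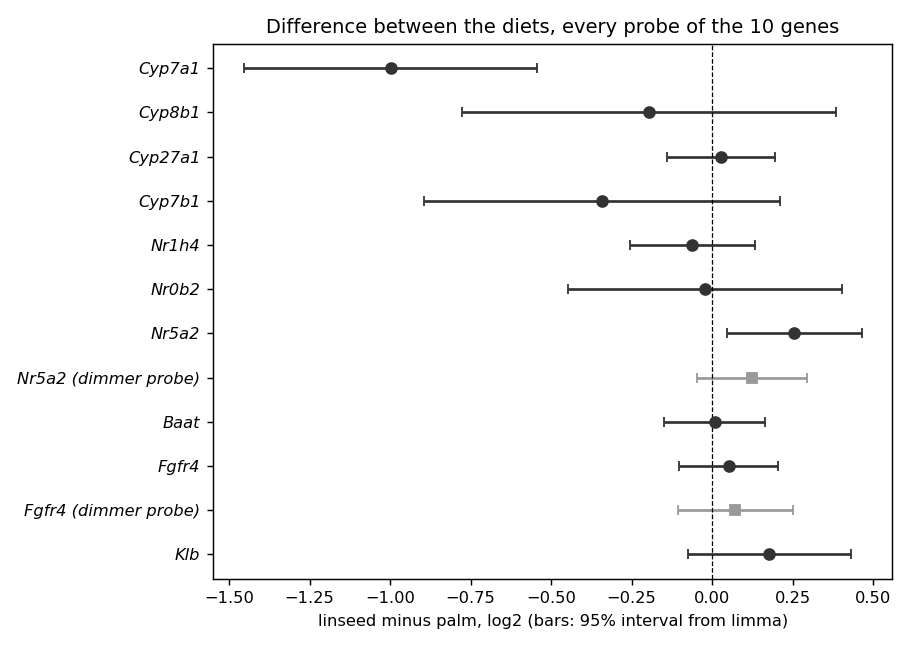
Difference between the diets for every probe of the 10 genes, linseed minus palm on the log2 scale, with the 95% interval from limma as bars; grey squares are the dimmer probes of Nr5a2 and Fgfr4. The interval of Cyp7a1, −1.45 to −0.543, lies below 0, and that of the brighter Nr5a2 probe, 0.047 to 0.464, lies above 0 although its adjusted p was 0.354.

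The difference in log2 level between Cyp7a1 and each other gene was also taken mouse by mouse. Cyp7a1 was singled out here because it had passed, so these values are a description with no test, and where the other gene differed little they restate the Cyp7a1 difference. Relative to Cyp8b1, the other enzyme of the classic pathway, the shift on linseed oil was −0.80, and relative to Cyp7b1 it was −0.66. Those were the smallest of the 9, and the rest lay between −0.977 (Nr0b2) and −1.25 (Nr5a2).

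Pairs of genes linked by the feedback loop or by a synthesis pathway were compared across mice after the diet means were taken out. There were 8 pairs, with permutation within diet and p adjusted over the pairs. None passed. Nr0b2 and Cyp7a1 had r = −0.353 (permutation p = 0.118, adjusted p = 0.517) and rho = −0.224 (permutation p = 0.364) over 18 mice. Within diets r was 0.081 on linseed oil and −0.685 on palm oil, and without the 2 mice farthest from the Nr0b2 median r was 0.085, so the negative value rested on those mice. Palm replicate 9 had the lowest Nr0b2 and Klb and the highest Cyp7a1, Cyp8b1 and Cyp27a1 of all 18 mice.

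Cyp7a1 and Cyp8b1 had r = 0.417 (permutation p = 0.129, adjusted p = 0.517) and rho = 0.209 (permutation p = 0.444). With slide means taken out r was 0.127. Linseed replicate 7 had the lowest value of both genes. Nr1h4 and Nr0b2 had r = −0.254 (permutation p = 0.345) and rho = −0.403 (permutation p = 0.139) over 16 mice. The other pairs had r between −0.188 and 0.177, the lowest for Nr0b2 with Cyp8b1 and the highest for Nr5a2 with Cyp7a1.

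**Figure D5:**
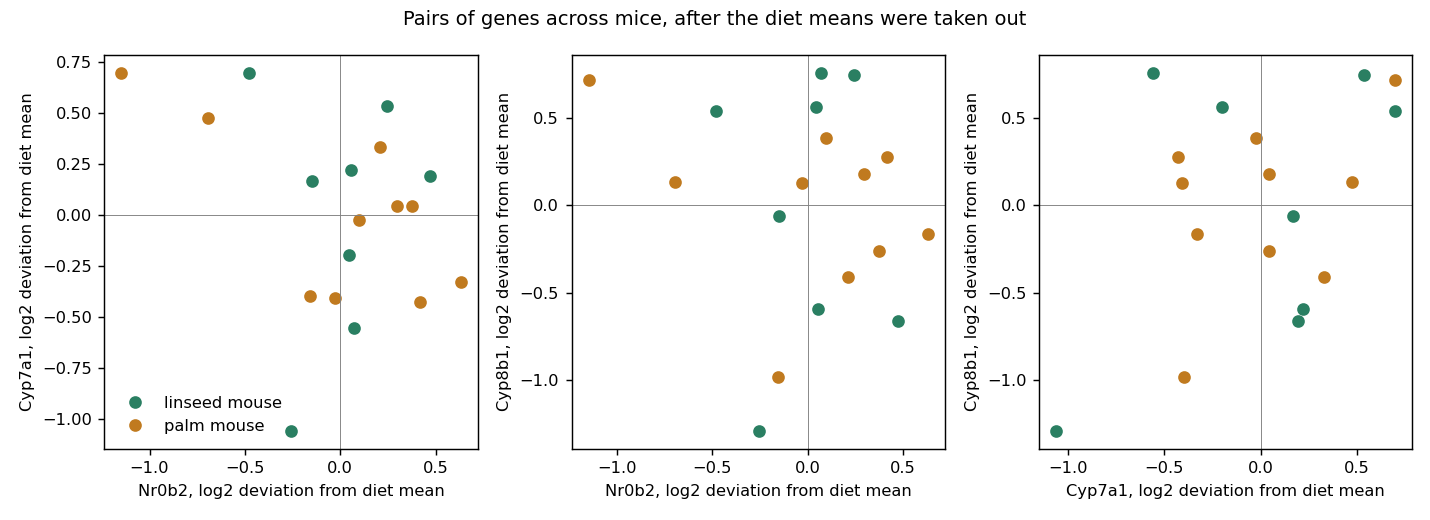
Deviations from the diet mean on the log2 scale for 3 pairs of genes, 1 point per mouse (green linseed, orange palm). In the left panel the palm mouse at the far left has the lowest Nr0b2, and r over the 18 mice is −0.353, or 0.085 without the 2 mice farthest from the median.

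Of genes measured on all 18 arrays (14715), those whose deviations from diet and slide means were most like Cyp7a1's included 2310022A10Rik (r = 0.79), Gmfg (0.78), BC025920 (0.78) and Grb2 (0.77). Those most opposed were the chromatin factor gene Rsf1, the immunoglobulin segment Igkv15-103 and the transcript ENSMUST00000056053, each at −0.82. None of these differed between the diets by the test. With only diet means taken out r was 0.51 for 2310022A10Rik, 0.48 for Gmfg, 0.67 for BC025920 and 0.71 for Grb2. It was then −0.75 for Rsf1, −0.65 for Igkv15-103 and −0.49 for ENSMUST00000056053. These correlations are extremes of many and describe 18 arrays only. Among the other 9 genes, r with Cyp7a1 after diet and slide means were taken out was between −0.294 (Nr0b2) and 0.313 (Fgfr4). With only diet means taken out it was between −0.353 (Nr0b2) and 0.417 (Cyp8b1), with Fgfr4 at 0.052. Both ranges leave out Nr1h4, which lacked values on 2 arrays.

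Of 18 listed enzymes that complete or modify bile acids, 10 were tested, 1 rose and 0 fell, against 0.57% of all genes higher and 0.188% lower. Their median difference was −0.0088, against −0.0038 over all genes. The one that rose was Acaa1b, a peroxisomal thiolase known mainly from fatty acid oxidation. Its level was 6.69, 6.86 and 7.24 in linseed livers (n = 7) and 5.82, 6.19 and 6.49 in palm livers (n = 8). The linseed values all lay above the palm values, a difference of 0.76 ± 0.11 (1.70-fold, adjusted p = 0.00438).

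Another 7 enzymes could be tested only with marked spots kept. In that fit 149 of 16544 genes passed (0.901%), and of 17 enzymes 2 rose and 1 fell. The enzyme that fell was Cyp2c70, which makes muricholic acids in mouse liver; it is named after its values were seen. Its level was 4.90, 5.10 and 5.51 in linseed livers and 5.53, 5.79 and 6.03 in palm livers. All 8 linseed values lay below all 10 palm values. The difference was −0.65 ± 0.097 (1.57-fold lower, adjusted p = 0.00233), and it was below 0 on 5 of 5 slides, between −0.889 and −0.469. Spots were marked on 3 linseed and 5 palm arrays, and none was saturated; over the unmarked arrays the means were 5.14 on linseed oil (n = 5) and 5.87 on palm oil (n = 5). The adjusted p was 0.00144 when slide was a fixed block, and in a fit of the authors' deposited table the difference was −0.66 (adjusted p = 0.00184).

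Hsd17b4, the peroxisomal bifunctional enzyme that shortens the bile acid side chain, was the other that rose beside Acaa1b, also named after its values were seen. Its level was 6.00, 6.23 and 6.42 in linseed livers and 5.74, 5.91 and 6.12 in palm livers, with 6 of 8 linseed values above the highest palm value. The difference was 0.30 ± 0.066 (1.23-fold, adjusted p = 0.0375). The call was near the threshold: it ended when slide was a fixed block (adjusted p = 0.0516), with normexp background correction (0.176), in a fit of the authors' deposited table (0.0892) and in 15 of the 18 fits that left out 1 mouse, where it ranged from 0.0198 to 0.0879. It held without linseed replicate 8 and without palm replicate 4 or 7.

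Of 21 listed transcription factors and cofactors that act on the bile acid enzyme genes, 20 were tested. None was called, which is near the share of all genes called, 0.759%, and their median difference was 0.022. Ppara, the fatty acid receptor and the member with the smallest p, was at 3.60, 3.90 and 4.09 in linseed livers and 3.38, 3.63 and 3.89 in palm livers. The linseed median lay just above the highest palm value, and the difference was 0.29 ± 0.09 (adjusted p = 0.165). That probe had a value on all 8 linseed and 10 palm arrays. In the fit with marked spots kept, where another probe can become a gene's brightest, the Ppara difference was 0.15 ± 0.069 (adjusted p = 0.455).

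FXR target genes of liver had 0 called of 12 tested, against 0.759% of all genes, and a median difference of 0.058. The list was not split by the direction in which FXR acts, so its median does not measure receptor activity. Slco1a1, an organic anion transporter, had the smallest p, with 2.68, 2.89 and 3.1 in linseed livers against 2.70, 3.03 and 3.44 in palm livers (−0.19 ± 0.093, adjusted p = 0.496). Abcb11, the bile salt export pump, could be tested only with marked spots kept, and its difference was −0.10 ± 0.068 (adjusted p = 0.634). FGF receptor signalling had 0 called of 9 and a median of −0.055, with Fgfr3 at −0.24 ± 0.10 (adjusted p = 0.389), or −0.13 as the mean of its probes. LXR target genes had 0 called of 9 and a median of 0.075. The counts of 0 in these lists are near the share of all genes called, 0.759%. Abcg8, a sterol exporter subunit, was at 0.14 ± 0.090 (adjusted p = 0.657). The list's other gene, Scd1, which desaturates fatty acids and is named outside the rule, could be tested only with marked spots kept, and its difference was −0.84 ± 0.20 (adjusted p = 0.0552).

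Clock genes were listed because Cyp7a1 follows a daily rhythm. Of 16 tested, 1 rose and 0 fell, against 0.57% of all genes higher and 0.188% lower, and their median difference was −0.091. Rora, a nuclear receptor of the clock, was at 1.45, 1.65 and 1.99 in linseed livers and 0.91, 1.30 and 1.52 in palm livers. The difference was 0.40 ± 0.09 (1.32-fold, adjusted p = 0.0489). The call held in 9 of 38 other settings, and leaving out 15 of the 18 mice one at a time ended it (adjusted p 0.0406 to 0.108); it held without linseed replicate 6 or palm replicate 3 or 8. It also ended when slide was a fixed block (adjusted p = 0.0565). The time of day at which each liver was taken is not given in the labels.

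Marker lists for other cells had no called member, against 0.759% of all genes called. The summed level of 7 adipocyte markers, of which 2 were above background on at least 8 arrays and Lep on none, was 1.94 to 36.3 in linseed livers and 0.285 to 10.3 in palm livers. Its highest values were those of linseed replicates 1 and 3. Without either mouse Cyp7a1 was at −0.92 (adjusted p = 0.0715) and −0.97 (adjusted p = 0.0813). The 10 neutrophil markers summed to 3.93 to 9.39 in linseed livers and 4.25 to 40.8 in palm livers, with palm replicate 3 highest. A linear sum weighs the brightest gene most. On the log2 scale Lcn2 reached 4.93 in palm livers, and S100a9, the next highest of those tested, reached 2.42. The 10 markers of exocrine pancreas summed to 2.52 to 4.07 in linseed livers and 2.76 to 24.4 in palm livers, with palm replicate 1 highest. Without palm replicate 3 Cyp7a1 was at −1.0 (adjusted p = 0.0513), and without palm replicate 1 at −0.994 (adjusted p = 0.0672). Of the 18 fits that left out 1 mouse, 10 ended the Cyp7a1 call, so its loss was not particular to these mice. Cholangiocyte markers summed to 3.17 to 6.52 in linseed livers and 3.87 to 9.44 in palm livers. Kupffer cell markers summed to 56.6 to 136 in linseed and 54.5 to 113 in palm livers. Endothelial markers summed to 47.7 to 65.9 in linseed and 34.2 to 66.6 in palm livers, and stellate markers to 49.6 to 77.2 in linseed and 44.1 to 69.0 in palm livers. Markers of small intestine and gallbladder summed to 74.1 to 104 in linseed livers and 50.2 to 93.4 in palm livers, with 2 of 10 above background on at least 8 arrays and Fgf15, Slc5a1, Muc13 and Cdx1 on none. Most of that sum was Fabp2, at log2 levels of 6.14 to 6.62 in linseed livers and 5.40 to 6.49 in palm livers. Lgals4 was at 1.52 to 2.81 and 1.43 to 2.91. The part of these cells in the differences was not tested.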

How the data were processed

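Liver RNA of 18 mice (8 linseed, 10 palm) was measured on 1-colour Agilent arrays, grouped by sample title. Per the file headers, the authors extracted spot intensity values with Feature Extraction 9.5.3.1 (annotation mm9). The submitters' processing notes also name limma. A value table that the authors deposited gives 18060 probes on the log2 scale. Its scaling is not stated in those headers or labels; its medians per array were 7.8476 to 7.8519, its rank correlation with the scanner's median signal was at least 0.999975, and it served as an alternative.

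The processed intensity was scaled to each array's 75th percentile (117 to 204) and log2 taken. Spots marked non-uniform or outlying (238 to 1703 per array) were left out, and saturated spots kept. A probe was used if 8 or more arrays had it well above background and 6 or more per diet gave a value; each gene took its brightest such probe. Of 39429 probes, 17258 to 22445 per array were well above background. Array number and signal limit precision. Names came from the array and were updated through RefSeq (26055 by accession, 3195 by symbol, 930 by synonym, 9249 kept).

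Linseed was set against palm by limma 3.58.1 under R 4.3.3 (two-sided lmFit and eBayes, Benjamini-Hochberg over 15951 genes). Slides, 5 in all, were read from the names of the deposited arrays and set against the headers' barcode and scan time. The members and lists were chosen with earlier results of these data known. Named genes were all 10 members, up to 3 called members (or the smallest p) of each list, and the 5 genes most and 3 least like Cyp7a1; Cyp2c70, Hsd17b4, Abcb11 and Scd1 were named outside that rule, and a few genes of the rule or of a marker list are not reported here. In a simulation 90% of changes of 1 log2 unit and 56% of 0.5 were called, and 9 of 15751 unchanged genes. Its noise was normal and independent between genes and arrays, with no slide effect, so these shares may not carry over to the real arrays.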

Additional observations from a re-analysis of the deposited data

Results flagged for a closer look

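Palm replicate 3 stood apart from the other palm mice for the brighter Nr5a2 probe, at 3.11 against 2.76 for the next highest. It was the 1 case among 24 sets of values tested by Dixon's criterion, which chance meets in about 1 of 20 sets. Without this mouse the Nr5a2 difference was 0.30 (adjusted p = 0.172), and it did not pass with or without it.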

How the results depend on the processing

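Of the differences of the 10 genes, those of Cyp7a1, Cyp8b1, Cyp7b1, Nr1h4, Nr5a2 and Klb kept their direction in every setting that gave a value (38, or 35 for Nr1h4), but not their size: leaving out 1 mouse gave −0.306 to −0.012 for Cyp8b1, −0.432 to −0.18 for Cyp7b1, −0.122 to −0.018 for Nr1h4, 0.194 to 0.303 for Nr5a2, 0.125 to 0.241 for Klb and, with the sign kept, 0.014 to 0.078 for Fgfr4. Cyp7a1 lost its call with slide as a fixed block (−0.96), with the replicate number as a block (−0.96), with no filter on dim probes (−0.998, where more genes were tested), and without slide 1 (−0.93), 2 (−1.0), 3 (−1.11), 4 (−0.945) or 5 (−0.986), fits with fewer mice; 0 of the 10 genes were then called. Leaving out 1 mouse gave −1.10 to −0.847 for Cyp7a1, 0 to 1 genes called and 51 to 142 calls over all genes. Over all genes 121 were called as reported, against 200 with slide as a random block, 68 with normexp, 42 with the percentile over unmarked spots, 44 with no filter, 18 with the replicate block and 20, 39, 30, 45 or 55 without slide 1 to 5; the cause was not tested. The labels do not say whether numbers shared by linseed and palm mice pair them. The 8 pairs correlated at −0.239 to 0.50, in 6 of them both mice shared a slide, and 2 linseed mice correlated best with their own number. Most pairs share a slide, so these correlations cannot decide it. With the replicate block Fgfr4 was at −0.0032.

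Sign turned for Cyp27a1 with quantile normalization (−0.0025), the percentile over unmarked spots (−0.012) or over probes detected on all arrays (−0.0025), and without slide 3 (−0.010). It turned for Nr0b2 with normexp (0.017) and without slide 2 (0.021), 3 (0.126) or 4 (0.0018), and for Baat with quantile normalization (−0.021), unmarked spots (−0.032), detected probes (−0.022), array weights (−0.029) and without slide 1 (−0.026) or 3 (−0.033). Leaving out 1 mouse gave −0.0052 to 0.059 for Cyp27a1, −0.149 to 0.049 for Nr0b2 and −0.029 to 0.033 for Baat. With slide means taken out r was 0.017 for Nr0b2 and Cyp8b1, 0.013 for Cyp7b1 and Cyp27a1 and −0.222 for Klb and Cyp7a1. Without the 2 farthest mice it was 0.085 for Nr0b2 and Cyp7a1, 0.107 for Nr0b2 and Cyp8b1 and −0.017 for Fgfr4 and Klb, and with marked spots kept 0.00059 for Cyp7b1 and Cyp27a1. Acaa1b was not called with the replicate block (0.73) or without slide 3 (0.69). The fits of Cyp2c70 and Hsd17b4 were chosen after seeing the data; Cyp2c70 passed in all 22, from −0.697 to −0.61.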
